A study of Homo sapiens with 8 samples.

Results

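The nuclear genes for the oxidative phosphorylation machinery were examined for 2 histone marks at their transcription start sites (TSS). The set was chosen by symbol from the hg19 gene annotation: every protein-coding gene whose symbol begins with NDUFA, NDUFB, NDUFC, NDUFS, NDUFV, UQCR, COX4 to COX8, ATP5F1, ATP5M or ATP5P, plus SDHA, SDHB, SDHC, SDHD and CYC1. It held 98 of the 20098 nuclear protein-coding genes considered. Of these, 7 encode core subunits of complex I, 30 its accessory subunits, 4 complex II, 10 complex III, 19 complex IV and 18 complex V. The symbols also took in 8 complex I assembly factors, NDUFAF1 to NDUFAF8, and 2 readthrough genes, ATP5MF-PTCD1 and NDUFC2-KCTD14, which are not subunit genes. The rule uses symbols and no measured value.

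Oxidative phosphorylation passes electrons from NADH and succinate through complexes I to IV of the inner mitochondrial membrane and uses the proton gradient that results to make ATP at complex V. Most of the subunits are encoded in the nucleus and the rest in the mitochondrial genome, so the nuclear genes have to supply many parts in matched amounts. H3K4me3, trimethylation of lysine 4 of histone H3, marks the start sites of active genes, and H3K27ac, acetylation of lysine 27, marks active promoters and enhancers.

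Histone marks were measured by ChIP-seq in HL-60 cells, an established human leukemia line that differentiates toward granulocytes when given all-trans retinoic acid (ATRA). One group of cultures received 1 µM ATRA for 4 days, and the control group received ethanol, the solvent, for the same time. Each mark had 2 libraries per group, 8 in all, and nothing in the labels says that the 2 came from separate cultures, so p-values measure only the spread between these libraries, which may be technical. Each comparison is of 1 cell line at 1 dose and 1 time.

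The value at a start site is the length in bp of the deposited broad peak that covers it, called width here. A width is the reach of a mark along the chromosome and not its height, and how many reads stood behind it is not known. Libraries held 13241 to 16487 H3K4me3 peaks and 15457 to 39332 H3K27ac peaks. The fewest were in control replicate 2 for H3K4me3 and in control replicate 1 for H3K27ac, and the part of this difference in the widths was not tested. The myeloid markers MPO, SPI1, CD33, CEBPE and CTSG had H3K4me3 in all 4 libraries, while ELANE and AZU1 had none and PRTN3 had it in both ATRA libraries only. ITGAM, CD38 and CYBB, which are switched on in granulocytic differentiation, had H3K4me3 in both ATRA libraries and in neither control library. FGR, on the same list, had no H3K4me3 at its start site in any library. No marker examined for T cells, erythroid cells, epithelium or liver had H3K4me3 at its start site.

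H3K4me3 divided the genes of the set cleanly. The mark covered the start site in all 4 libraries for 89 of the 98 genes, 90.8%, and in no library for the other 9. No gene of the set had it in only some libraries. Among all 20098 protein-coding genes 10128, 50.4%, had it in all 4 libraries and 9192 had it in none. Most genes were thus marked in all 4 or in none, as in the set. Every one of the 7 core and 30 accessory complex I genes, the 8 assembly factors, the 4 complex II genes and the 2 readthrough genes was marked. So were 9 of 10 complex III genes, 17 of 18 complex V genes and 12 of 19 complex IV genes.

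**Figure D1:**
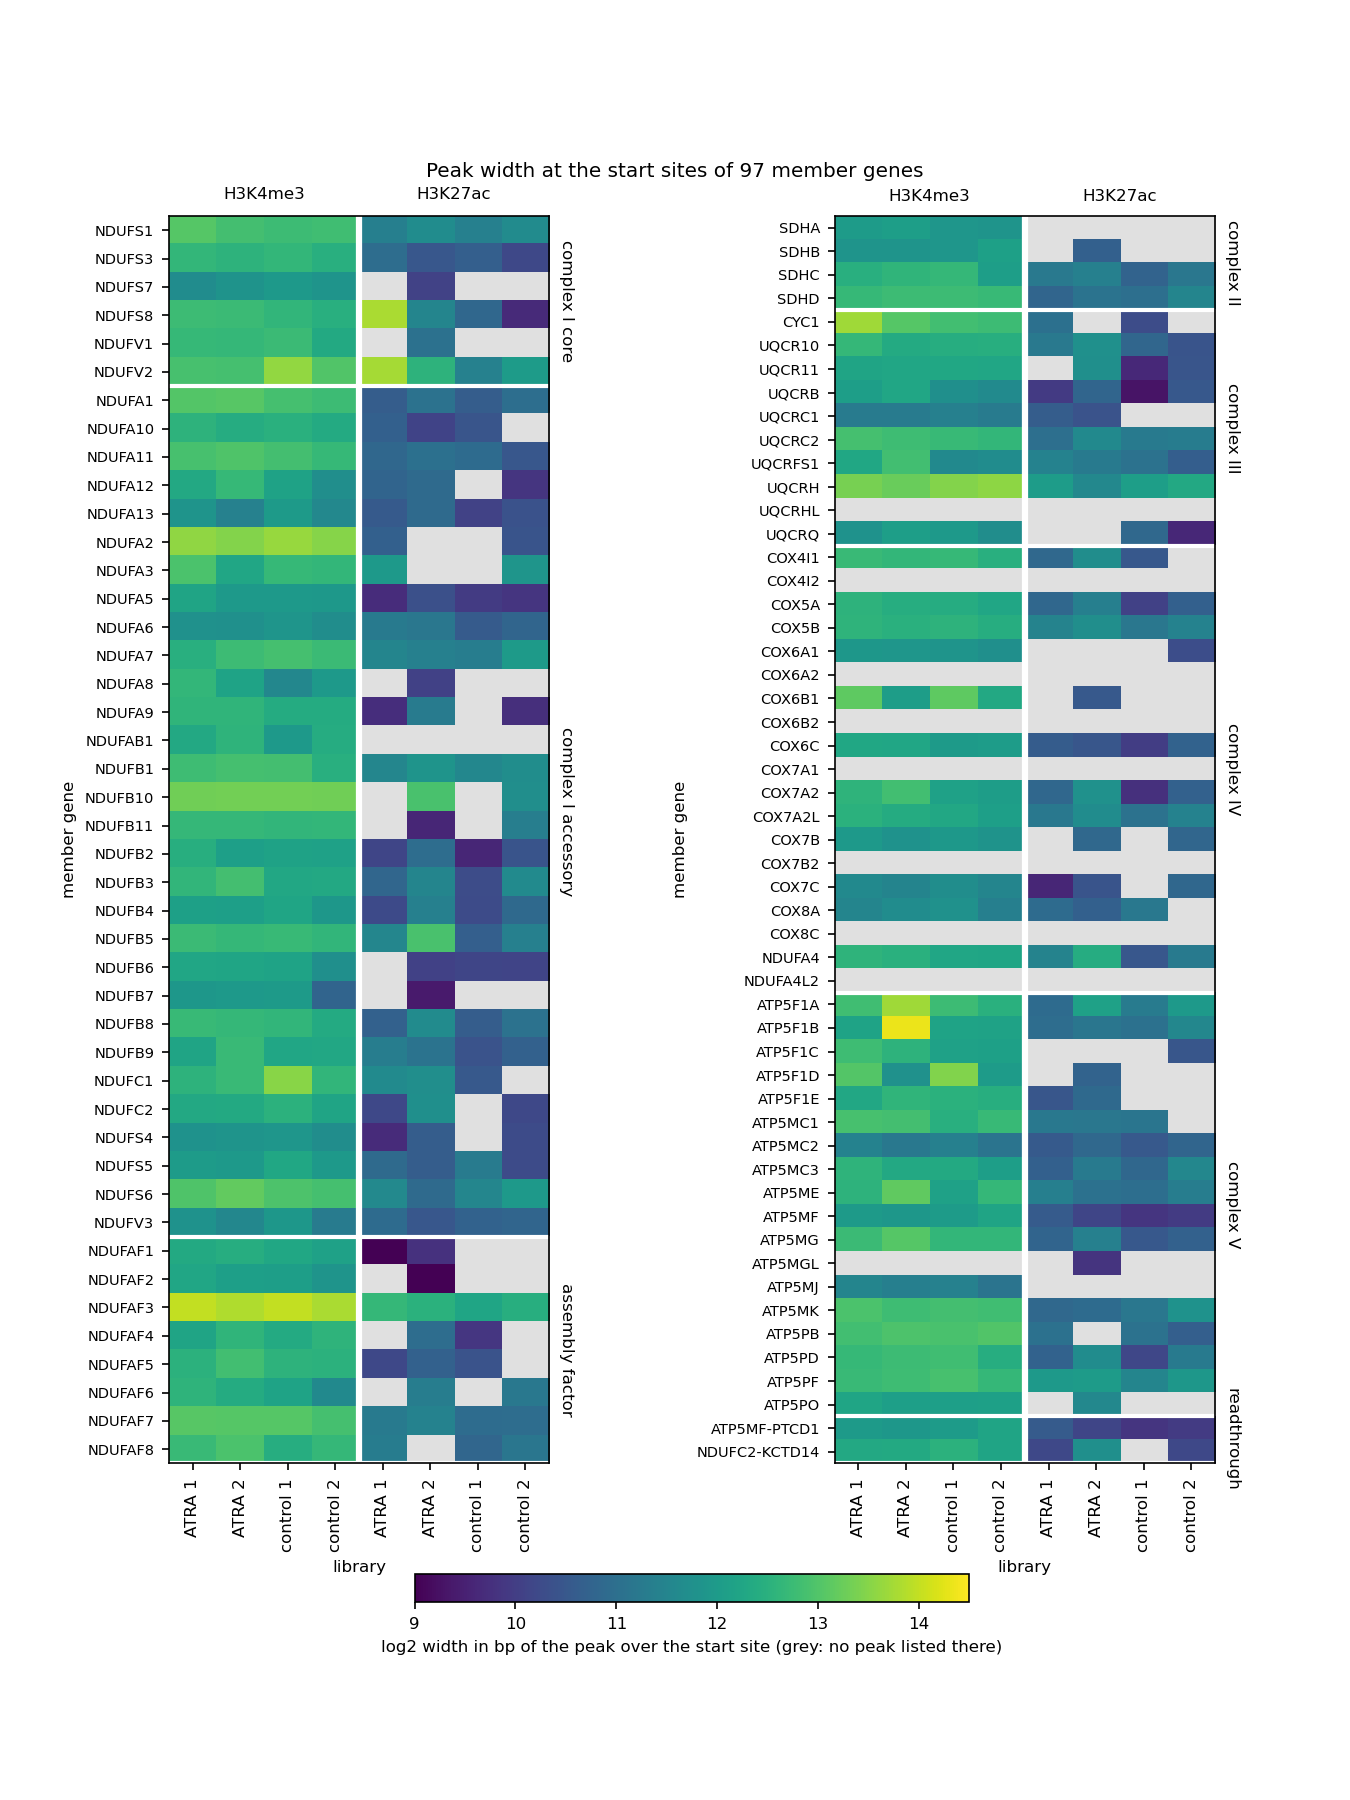
Heat map of peak width at the start site for 97 of the genes (rows, grouped by complex) in the 8 libraries (columns). Colour gives log2 of the width in bp, and grey means that no peak was listed over the start site; H3K4me3 is missing in every library for 9 genes and present in every library for the others, while H3K27ac is patchy.

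The 9 unmarked genes were COX4I2, COX6A2, COX6B2, COX7A1, COX7B2, COX8C, NDUFA4L2, UQCRHL and ATP5MGL. The first 7 encode alternative forms of complex IV subunits, or of NDUFA4, that are known for restricted expression: COX6A2 and COX7A1 in heart and skeletal muscle, COX6B2, COX7B2 and COX8C in testis, COX4I2 in lung and NDUFA4L2 under low oxygen. UQCRHL is a copy of UQCRH without introns, and ATP5MGL is a copy of ATP5MG. Their nearest H3K4me3 peaks lay far away. The distance was at least 5574 bp in every library for 8 of the 9, the shortest being at ATP5MGL.

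NDUFA4L2 was the exception. Its nearest H3K4me3 peak lay 218 bp from the start site in control replicate 1, 2177 bp in control replicate 2, and 2204 and 1452 bp in the ATRA replicates. H3K27ac covered the start site of 1 of the 9 genes in 1 library, a peak of 907 bp at ATP5MGL in ATRA replicate 2. At COX8C an H3K27ac peak came within 944 bp in control replicate 2, and in the other 3 libraries the nearest lay 3533 to 13200 bp away.

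The widely used counterparts of the 7 restricted forms were all marked. H3K4me3 widths at COX4I1 were 6733 and 6410 bp in ATRA and 6555 and 5663 bp in control cells. COX6A1 had 3824 and 3816 bp in ATRA and 3697 and 3430 bp in control cells. COX7A2 had 6114 and 7317 bp against 4517 and 4290 bp. The conditions overlapped at COX4I1, and at COX6A1 and COX7A2 both ATRA widths were above both control widths.

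COX7B had 3976 and 3556 bp in ATRA and 3886 and 3624 bp in control cells, and COX8A had 2882 and 3265 bp against 3510 and 2673 bp. NDUFA4, once assigned to complex I and now to complex IV, had 6105 and 5740 bp in ATRA and 4889 and 4826 bp in control cells. COX6B1 had 9027 and 4247 bp in ATRA and 8949 and 5084 bp in control cells, so that its long peaks were those of replicate 1 in both conditions. Each of the 7 pairs thus had 1 form marked in all 4 libraries and 1 form unmarked in all 4, with or without ATRA.

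**Figure D2:**
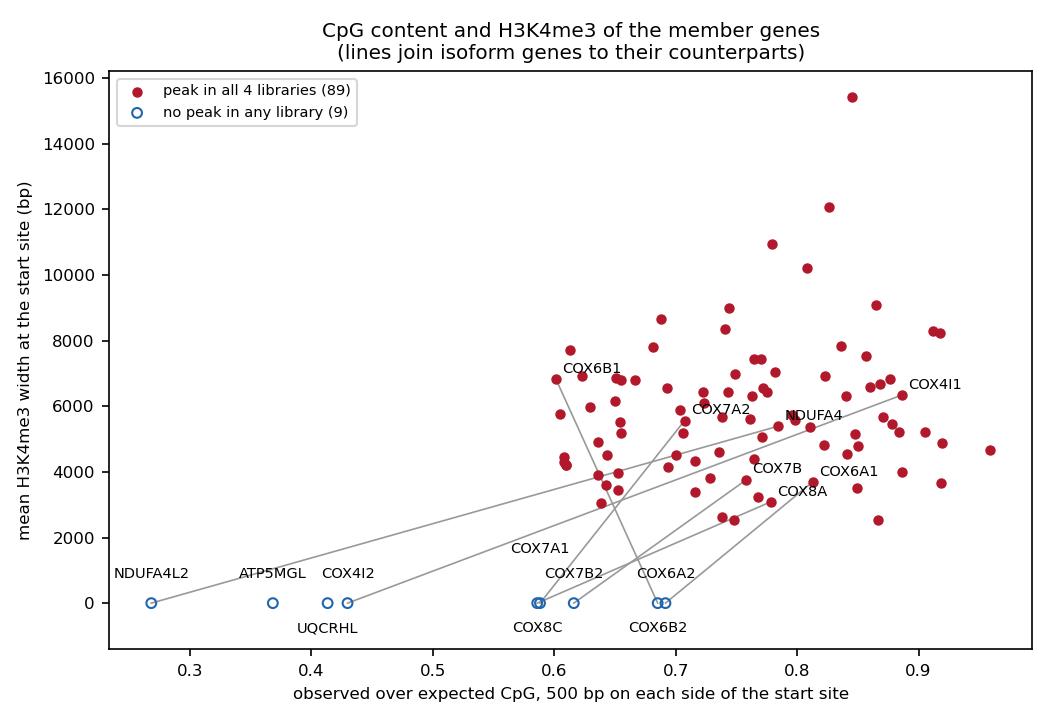
Mean H3K4me3 width over the 4 libraries (vertical axis, bp) against the observed over expected CpG ratio in the 500 bp on each side of the start site (horizontal axis) for the 98 genes. Filled points are the 89 marked genes, open points the 9 unmarked genes, and lines join restricted forms to their counterparts; marked genes lie at ratios of 0.60 to 0.96 and unmarked genes at 0.27 to 0.69.

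The marked and unmarked genes also differed in sequence around the start site. The observed over expected CpG ratio, which compares CpG dinucleotides with the number that the C and G content would give, had a median of 0.76 in the 89 marked genes and 0.59 in the 9 unmarked ones. It was 0.80 over all genes marked in all 4 libraries and 0.43 over all genes marked in none. The ranges overlapped. COX6B1 was marked with a ratio of 0.60, and COX6A2 was unmarked with 0.69. UQCRFS1 had the highest ratio, 0.96, with widths of 3142 to 7316 bp.

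Motifs were counted on both strands from 250 bases before to 50 bases after the start site, and matches could overlap. The NRF1 motif GCATGCGC, bound by nuclear respiratory factor 1, stood in 15 of the 89 marked promoters, 16.9%. It stood in 6.70% of all promoters with H3K4me3 in all 4 libraries and in 4.24% of all promoters. The ETS motif CCGGAAG, bound among others by GABPA, stood in 26 marked promoters, 29.2%, against 23.4% and 14.01%. The YY1 motif AAGATGGC stood in 17, or 19.1%, against 6.99% and 4.025%.

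The GC box GGGCGG, bound by SP factors, was less frequent in the set than in other marked promoters. It stood in 61.8% of the 89, against 75.9% of all marked promoters and 61.0% of all promoters. None of the 9 unmarked promoters held the NRF1, ETS or YY1 letters, and 44.4% of them held the GC box. Over all genes without H3K4me3 in any library the shares were 1.599% for NRF1, 4.199% for ETS, 0.9574% for YY1 and 43.96% for the GC box. The first 3 motifs were thus rare in unmarked promoters generally, and their absence from 9 promoters does not set these genes apart. TATAAA was found in 5.62% of the 89 marked promoters, against 4.68% of all marked promoters and 9.82% of all promoters. CCAAT was found in 30.3%, against 37.3% and 35.9%. These matches describe the letters in the window and not the binding of a factor.

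As examples, the 200 bases before the start site are printed for 4 marked genes and 2 unmarked genes whose window overlaps no annotated exon. The genes were picked by name and are not typical of their groups. All 4 marked ones hold an ETS match, which 29.2% of the 89 marked promoters held in the wider window used above. The stretches are from GRCh37, the build of the peak files, 5′ to 3′ on the strand of the gene. NRF1, ETS and YY1 matches are in capitals. The marked genes were COX5B (chr2:98262325-98262524 on the plus strand), SDHB (chr1:17380528-17380727 on the minus strand), COX6B1 (chr19:36139025-36139224 on the plus strand) and COX8A (chr11:63741892-63742091 on the plus strand).
COX5B: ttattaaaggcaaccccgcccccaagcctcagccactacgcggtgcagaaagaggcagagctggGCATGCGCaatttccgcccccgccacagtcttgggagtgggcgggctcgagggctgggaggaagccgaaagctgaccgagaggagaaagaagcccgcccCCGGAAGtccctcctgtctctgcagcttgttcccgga
SDHB: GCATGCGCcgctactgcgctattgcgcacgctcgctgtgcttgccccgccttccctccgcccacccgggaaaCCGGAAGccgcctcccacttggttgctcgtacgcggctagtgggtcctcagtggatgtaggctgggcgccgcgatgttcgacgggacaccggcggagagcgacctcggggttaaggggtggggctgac
COX6B1: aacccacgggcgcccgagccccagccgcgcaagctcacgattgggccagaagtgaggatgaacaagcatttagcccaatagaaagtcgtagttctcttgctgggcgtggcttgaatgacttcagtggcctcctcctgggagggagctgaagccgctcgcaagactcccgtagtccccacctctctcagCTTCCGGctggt
COX8A: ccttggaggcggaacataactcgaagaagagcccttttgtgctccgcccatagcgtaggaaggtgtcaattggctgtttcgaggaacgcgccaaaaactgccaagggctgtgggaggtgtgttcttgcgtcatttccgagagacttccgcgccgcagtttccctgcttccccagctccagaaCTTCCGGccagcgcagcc

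The unmarked genes were COX8C (chr14:93813328-93813527 on the plus strand) and COX7B2 (chr4:46911263-46911462 on the minus strand).
COX8C: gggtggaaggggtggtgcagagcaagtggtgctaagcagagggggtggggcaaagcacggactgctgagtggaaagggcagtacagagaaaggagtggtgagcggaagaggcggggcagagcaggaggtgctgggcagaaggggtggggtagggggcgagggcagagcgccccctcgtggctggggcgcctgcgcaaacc
COX7B2: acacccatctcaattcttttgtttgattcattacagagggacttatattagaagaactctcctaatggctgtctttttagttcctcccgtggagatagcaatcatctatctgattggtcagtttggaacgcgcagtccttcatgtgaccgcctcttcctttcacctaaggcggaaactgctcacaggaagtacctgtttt

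COX5B carries an NRF1 match that begins 136 bases before the start site and an ETS match that begins 37 bases before it. In SDHB the NRF1 match begins 200 bases and the ETS match 128 bases before the start site, and in COX6B1 and COX8A an ETS match on the other strand begins 12 and 18 bases before it. The unmarked windows have no capitals. In their 200 bases COX8C holds 8 CpG dinucleotides and COX7B2 5, against 12 in COX6B1 and 14 in COX8A.

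Marked genes of the set often shared their H3K4me3 peak with a neighbour. Of the 89, 42 lay under a peak that covered the start site of another protein-coding gene in every library, 47.2% against 27.8% of all marked genes. For at least 4 of them, ATP5MF, NDUFC2 and their readthrough genes, the only other gene was the one they overlap. ATP5MG and COX6A1 shared their peaks only with genes that carry no symbol. Whether such genes overlap them was not examined, so the counts of shared peaks are not all of separate neighbours. Without assembly factors and readthrough genes 35 of 79 shared a peak, 44.3%. A divergent neighbour, transcribed the other way from within 1000 bp, was found for 29, or 32.6% against 17.0%. ATP5PF, a subunit of the peripheral stalk of ATP synthase, started 68 bp from GABPA, itself a regulator of respiratory genes. NDUFB9 started 38 bp from TATDN1, NDUFAF7 62 bp from CEBPZ, UQCRH 82 bp from LRRC41, and SDHD 117 bp from TIMM8B. At these promoters the width belongs to both genes and cannot be assigned to 1 of them. Shared peaks were found at 17 of 30 complex I accessory genes, 5 of 8 assembly factors, 8 of 17 marked complex V genes and 2 of 12 marked complex IV genes.

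The widths covered a wide range. Averaged over the 4 libraries, they ran from 2520 to 15430 bp, with a median of 5578 bp beside 5420 bp over all marked genes. The widest were at NDUFAF3, a complex I assembly factor, with 16287 and 14817 bp in ATRA and 16326 and 14305 bp in control cells. NDUFA2, an accessory subunit of complex I, had 12237 and 11505 bp against 12875 and 11648 bp. UQCRH, the hinge protein of complex III, had 10567 and 9638 bp against 11402 and 12191 bp. All 3 peaks also covered start sites of other genes: DALRD3 and IMPDH2 at NDUFAF3, IK and TMCO6 at NDUFA2, and LRRC41 at UQCRH.

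The narrowest peaks belonged to genes with no such neighbour. ATP5MC2, which encodes the c subunit of the ATP synthase rotor, had 2794 and 2362 bp in ATRA and 2694 and 2230 bp in control cells. UQCRC1, a core protein of complex III, had 2501 and 2490 bp against 2674 and 2487 bp. ATP5MJ, a small membrane subunit of ATP synthase, had 2922 and 2643 bp against 2746 and 2224 bp. By complex, the median of the mean width was 6301 bp for the complex I core, 5489 bp for its accessory subunits, 4826 bp for complex II, 4866 bp for complex III, 5281 bp for complex IV and 6571 bp for complex V.

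ATRA neither added nor removed H3K4me3 at any of these start sites. Of the 89 genes with a peak, 0 had it in both ATRA and neither control library and 0 the reverse. Over all genes with a peak in at least 1 library these patterns were found at 0.477% and 0.238%, so few would be counted in a set of this size. Within 1000 bp of the start site the counts for the set were also 0 in both directions.

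H3K4me3 peaks were slightly longer in ATRA than in control cells, in the set as in the genome. Median widths over the 89 genes were 6008 and 6045 bp in ATRA and 5242 and 4913 bp in control cells. The log2 ratio of ATRA to control width had a median of 0.11 in the set and 0.17 over all 10128 marked genes. It was 0.03 between the libraries numbered 1 and 0.16 between those numbered 2, beside 0.07 and 0.26 over all genes, so most of the difference came with replicate 2. Centred on the median of all genes in each library, the median of the set was -0.09, and without control replicate 2 it was 0.015.

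Both ATRA widths exceeded both control widths at 33 of the 89 genes, 37.1% beside 41.3% of all genes with a peak. They were 10 of 30 complex I accessory, 3 of 7 complex I core, 4 of 8 assembly factor, 1 of 4 complex II, 4 of 9 complex III, 6 of 12 complex IV and 5 of 17 complex V genes. Both ATRA widths were below both control widths at 6 genes, 6.74% beside 4.69%. These were NDUFS7, NDUFV2, SDHB, UQCRH and ATP5MF with its readthrough gene ATP5MF-PTCD1, which shares its start site peak.

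In limma, no gene of the set passed an adjusted p of 0.05. Over all 10128 genes 0 passed, 0%, while an unadjusted p under 0.05 was reached by 12% of all genes and by 6 genes of the set. All 6 were longer in ATRA, and the lowest adjusted p in the set was 0.375, at COX7A2. With the replicate number as a block the count of all genes remained at 0, with 12.4% at an unadjusted p under 0.05.

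The largest ratios with separated groups were at 5 genes. UQCRFS1, the Rieske iron-sulfur protein of complex III, had 4936 and 7316 bp in ATRA against 3142 and 3263 bp in control cells (log2 ratio 0.91 ± 0.23 SE, limma adjusted p = 0.375). NDUFA8, a complex I accessory subunit, had 6437 and 4685 bp against 3009 and 3961 bp, a log2 ratio of 0.67 ± 0.24 SE. COX7A2, given above, had a ratio of 0.60 ± 0.15 SE. At these 3 genes each ATRA library was above each control library.

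The other 2, subunits of the F1 part of ATP synthase, rested on 1 library. ATP5F1B, the beta subunit, had 20718 bp in ATRA replicate 2 against 4700 bp in ATRA replicate 1 and 4646 and 4607 bp in control cells. ATP5F1A, the alpha subunit, had 13471 bp in ATRA replicate 2 against 7237, 6963 and 5783 bp. Without ATRA replicate 2 the log2 ratio of ATP5F1B was 0.02 and that of ATP5F1A was 0.19.

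**Figure D3:**
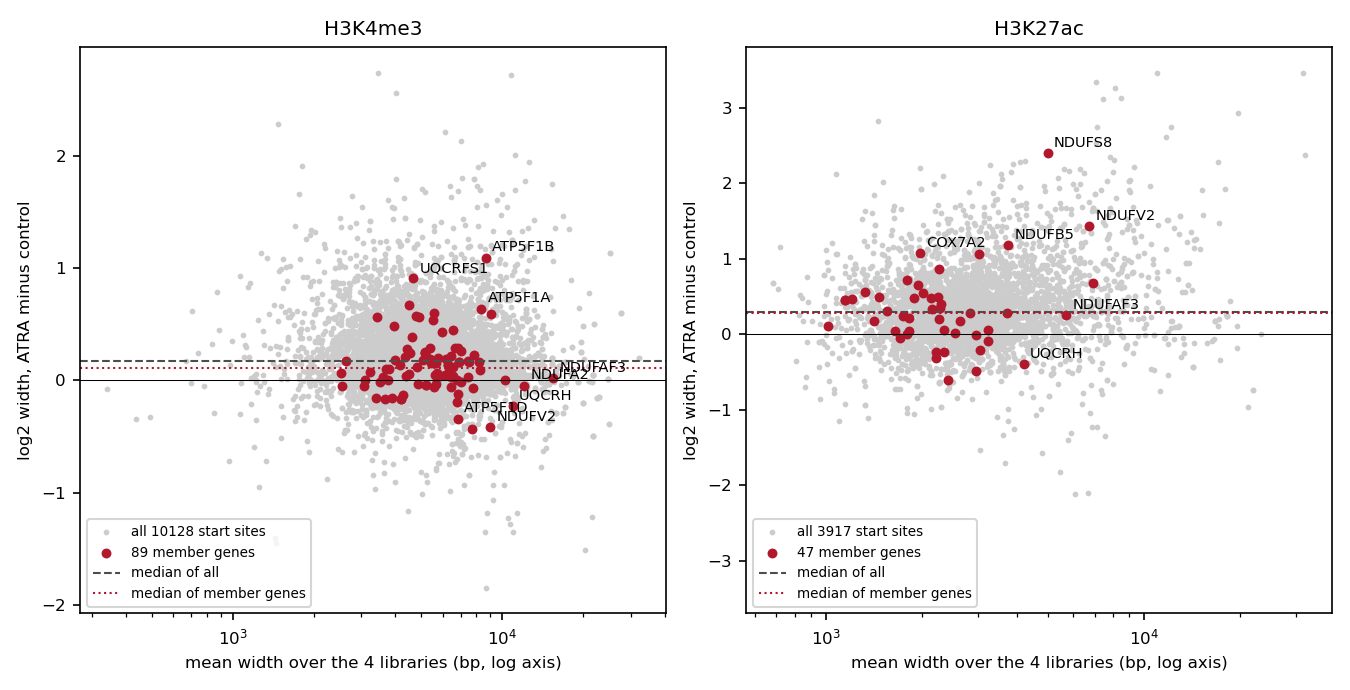
Log2 ratio of ATRA to control width (vertical axis) against mean width over the 4 libraries (horizontal log axis, bp) for H3K4me3 (left) and H3K27ac (right). Grey points are all 10128 and 3917 start sites with a peak in all 4 libraries, red points the 89 and 47 genes of the set, and the dashed and dotted lines their medians, 0.17 and 0.11 on the left and 0.30 and 0.28 on the right.

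Among the genes with shorter peaks in ATRA, NDUFV2, a core subunit of the NADH-oxidizing module, had 7670 and 7559 bp against 12543 and 8234 bp (log2 ratio -0.42 ± 0.24 SE, limma adjusted p = 0.524), and the ratio was -0.11 without control replicate 1. UQCRH, given above, had a log2 ratio of -0.22 ± 0.13 SE. ATP5MF had 4091 and 3870 bp against 4177 and 4753 bp, and NDUFS7, another core subunit of complex I, had 3271 and 3635 bp against 4051 and 3673 bp. Apart from NDUFV2, these differences were of at most 0.22 on the log2 scale.

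In complex II, succinate dehydrogenase, the 4 genes differed little between conditions and none passed the test. SDHA, the flavoprotein, had 4162 and 4325 bp in ATRA and 3797 and 3679 bp in control cells. SDHB, the iron-sulfur protein, had 3666 and 3688 bp against 3801 and 4441 bp. The groups did not overlap at either gene, and they lay in opposite orders.

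SDHC and SDHD encode the membrane anchors. SDHC had 5650 and 6158 bp in ATRA and 6516 and 4320 bp in control cells, and SDHD had 6591 and 7017 bp against 6964 and 6642 bp, with overlap at both. CYC1, cytochrome c1 of complex III, had 13537 and 8542 bp in ATRA and 7263 and 6994 bp in control cells (log2 ratio 0.59 ± 0.26 SE, limma adjusted p = 0.459). Its ATRA replicates differed more than its conditions did in replicate 2.

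Not every spread followed the treatment. ATP5F1D, the delta subunit of ATP synthase, had 8338 bp in ATRA replicate 1 and 11315 bp in control replicate 1, but 3518 and 4149 bp in the 2 libraries numbered 2. With COX6B1, above, it showed long peaks in both libraries numbered 1. Over the 89 genes the median difference between the 2 ATRA libraries was 0.14 on the log2 scale and that between the 2 control libraries 0.18, both taken without sign.

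H3K27ac was less complete at the same start sites. It covered 67 and 79 of the 98 start sites in ATRA and 60 and 66 in control cells, and 47 in all 4 libraries, 48.0% beside 19.5% of all genes. Within 1000 bp of the start site it was found in all 4 libraries at 82 genes, 83.7% beside 34.8%. Part of this gap came with H3K4me3, which fewer of all genes carried. Among genes with H3K4me3 in all 4 libraries, H3K27ac covered the start site in all 4 at 47 of 89 in the set and 3854 of 10128 over all. Within 1000 bp these counts were 82 of 89 and 6796 of 10128. The 7 genes with H3K4me3 but without H3K27ac within 1000 bp in all 4 libraries included SDHA, whose nearest peak lay 300 bp away in ATRA replicate 2 and at least 51345 bp away in the others. SDHA has near-identical pseudogene copies elsewhere in the genome, and whether reads could be placed there was not tested.

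The gap between these counts came from peaks that began just beside the start site. Of the genes with H3K4me3 but no H3K27ac over the start site, 18 of 22, 11 of 11, 24 of 29 and 20 of 23 had an H3K27ac peak within 1000 bp in ATRA replicates 1 and 2 and control replicates 1 and 2. The median distance of these peaks was 196, 262, 190.5 and 225 bp. COX6B1, for instance, had a peak of 1493 bp over its start site in ATRA replicate 2 and peaks 42, 50 and 118 bp away in the other 3 libraries.

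Around marked start sites H3K27ac was densest on the transcribed side. It reached its maximum 300 to 400 bp downstream, where 93.3% and 95.5% of the 89 genes were covered in ATRA and 91.0% and 86.5% in control cells. Over all 10128 marked genes the maxima were 69.9%, 75.1%, 61.6% and 63.3%. At 2000 bp downstream the order was turned around: 5.62%, 11.2%, 1.12% and 4.49% of the set were covered, against 16.6%, 24.95%, 8.1% and 17.3% of all marked genes. The acetylated stretch of these genes was thus present more often and was shorter in each of the 4 libraries.

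**Figure D4:**
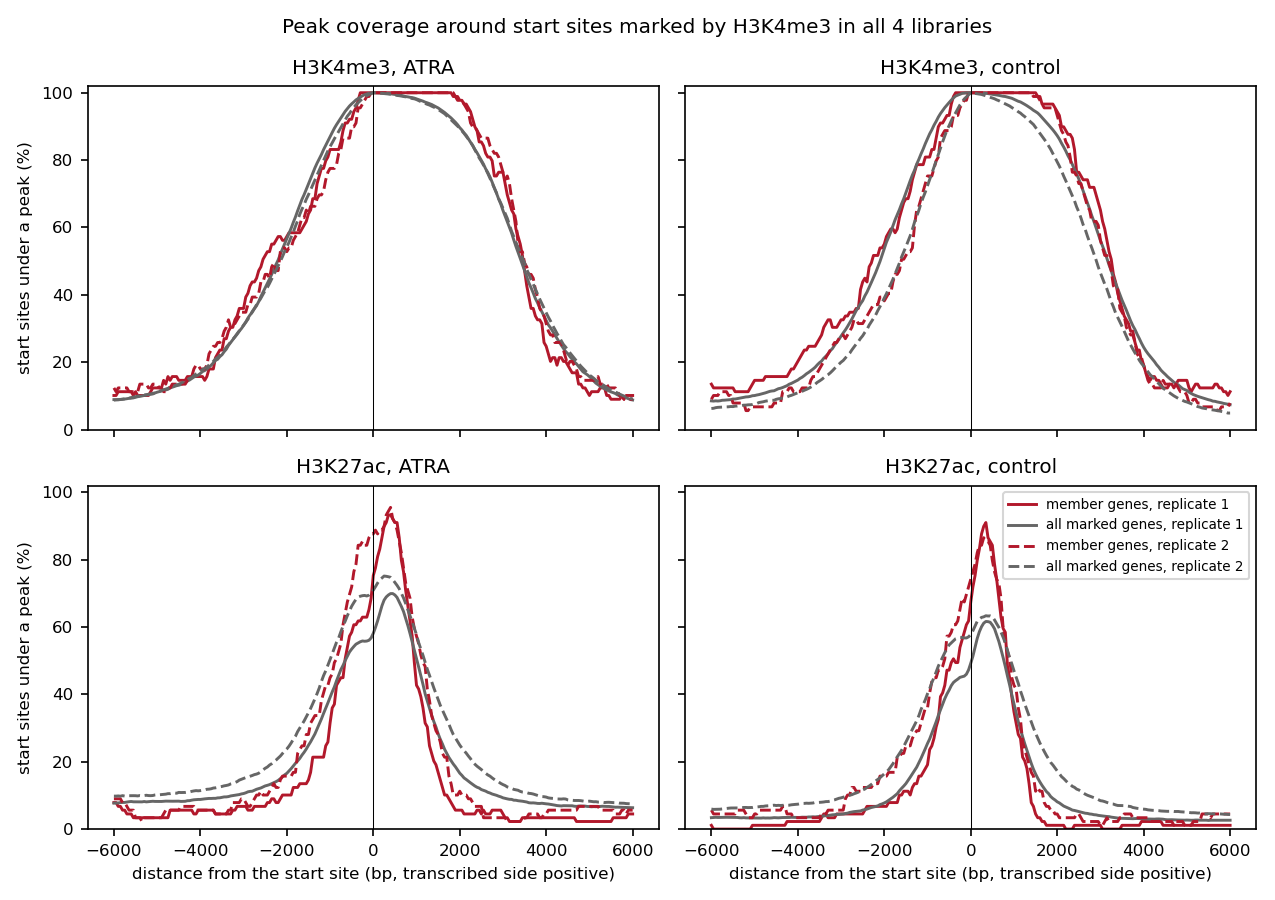
Share of marked start sites under a peak (vertical axis, %) by distance from the start site (horizontal axis, bp, transcribed side positive), for the 89 genes of the set (red) and all 10128 marked genes (grey), with replicate 1 as solid and replicate 2 as dashed lines. H3K27ac of the set peaks 300 to 400 bp downstream at 86.5% to 95.5% and has dropped to 1.12% to 11.2% at 2000 bp.

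H3K4me3 was ordered the other way at 2000 bp downstream, with more of the set covered than of all marked genes in each library. It covered 97.8% of the 89 genes at 2000 bp downstream in both ATRA libraries and 94.4% and 93.3% in control cells, against 89.6%, 89.4%, 87.3% and 79.5% of all marked genes. Where H3K27ac covered the start site, it lay wholly inside the H3K4me3 peak at 92.5%, 82.1%, 98.3% and 92.4% of the genes of the set and at 84.0%, 77.3%, 93.6% and 82.5% of all. Among complex I core genes 2 of 5 lay inside in ATRA replicate 1, and among complex IV genes 6 of 11 in ATRA replicate 2.

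H3K27ac was present in both libraries of 1 condition and neither of the other at 4 genes. It covered the start site in the ATRA libraries only at ATP5F1E, UQCRC1 and NDUFAF1, 3.45% of the 87 genes with a peak, beside 6.97% of all genes. It did so in the control libraries only at UQCRQ, 1.15% beside 0.996%. Both shares were near or under those of all genes. Within 1000 bp of the start site 0 genes of the set showed either pattern, beside 4.77% and 0.529% of all.

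**Figure D5:**
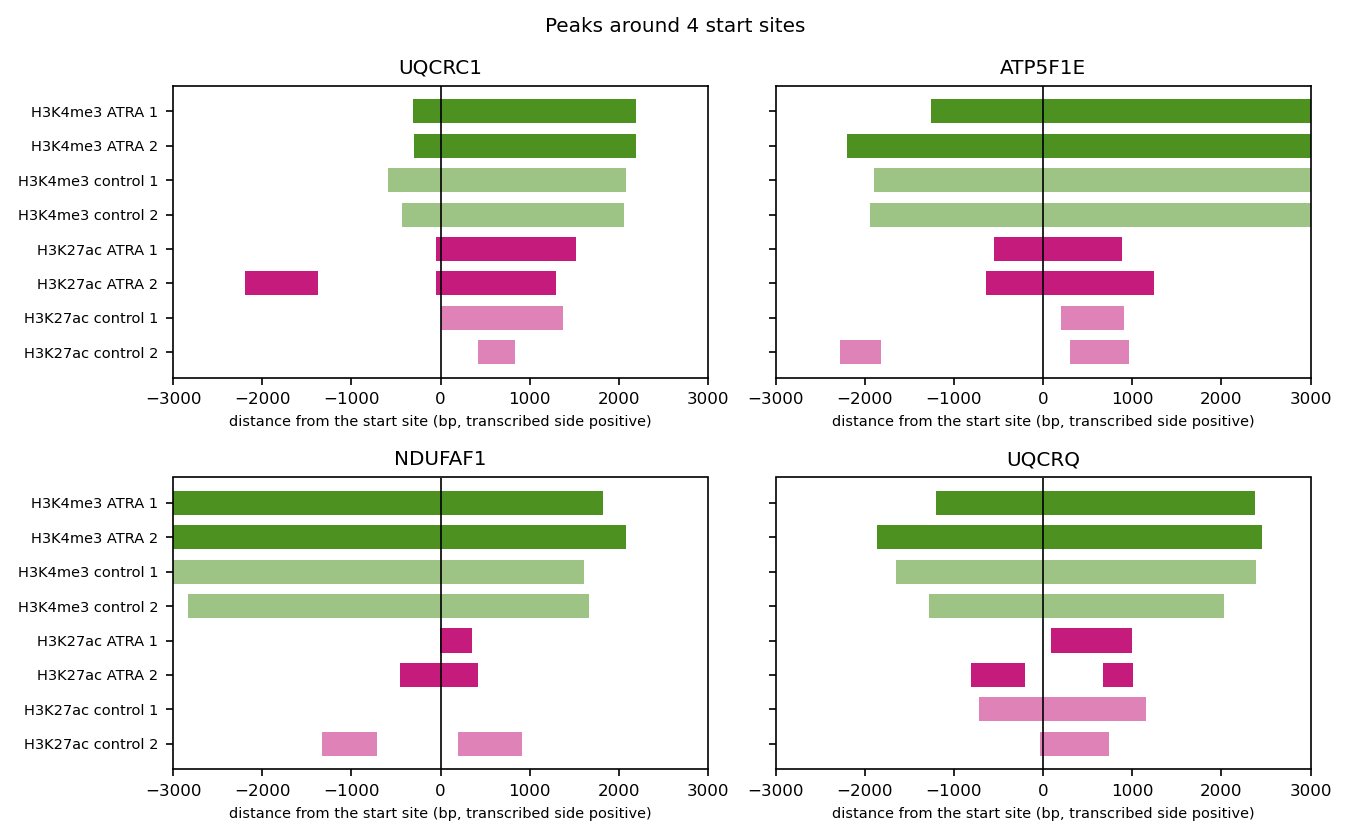
Peaks within 3000 bp of the start sites of UQCRC1, ATP5F1E, NDUFAF1 and UQCRQ (horizontal axis, bp, transcribed side positive), with 1 row per library, H3K4me3 in green, H3K27ac in magenta and control libraries in lighter shades. In the libraries without H3K27ac over the start site, a peak begins 3 to 415 bp away, except at NDUFAF1 in control replicate 1.

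At UQCRC1 the ATRA peaks of 1572 and 1351 bp began 49 and 52 bp upstream of the start site, which they covered, while the control peaks of 1368 and 419 bp began 3 and 415 bp downstream. At ATP5F1E, the epsilon subunit of ATP synthase, ATRA peaks of 1428 and 1878 bp covered the start site and control peaks of 707 and 668 bp began 196 and 300 bp downstream. At this gene the control peaks were shorter as well as displaced.

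NDUFAF1, an assembly factor of complex I, had ATRA peaks of 363 and 884 bp, a peak 194 bp downstream in control replicate 2 and none within 14160 bp in control replicate 1. UQCRQ, a small subunit of complex III, had control peaks of 1867 and 778 bp, and in ATRA its nearest peaks lay 91 and 203 bp from the start site. Apart from NDUFAF1 in control replicate 1, each library without a peak over the start site had one within 415 bp.

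At 10 genes H3K27ac lay over the start site in ATRA replicate 2 alone, the library with the most H3K27ac peaks. They were ATP5F1D, ATP5MGL, ATP5PO, COX6B1, NDUFA8, NDUFAF2, NDUFB7, NDUFS7, NDUFV1 and SDHB. ATP5MJ, NDUFAB1 and SDHA had H3K4me3 in all 4 libraries and H3K27ac over the start site in none. CYC1 had H3K27ac in the libraries numbered 1 only, with 2085 bp in ATRA and 1235 bp in control cells.

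SDHB had an H3K27ac peak of 1639 bp in ATRA replicate 2 alone. SDHC had 2398 and 2680 bp in ATRA and 1729 and 2309 bp in control cells, and SDHD had 1768 and 2180 bp against 2047 and 2917 bp. The 2 conditions did not overlap at SDHC and overlapped at SDHD.

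The 47 genes with H3K27ac in all 4 libraries had longer peaks in ATRA, as did the genome. Their log2 ratio had a median of 0.28 beside 0.30 over all 3917 genes, and of 0.31 and 0.29 within the libraries numbered 1 and 2. Without ATRA replicate 2 the median of the set was 0.153 and without control replicate 1 it was 0.135, and after centring of the widths in each library it was -0.02. Both ATRA widths, with 0 for no peak, exceeded both control widths at 28 of 87 genes, 32.2% beside 30.5% of all genes with a peak. Both were below at 4, 4.6% beside 3.66%. Per library the median width of the set was 1921 and 2186 bp in ATRA and 1709 and 1819.5 bp in control cells, against 2624, 2919, 2083 and 2498 bp over all genes with a peak there.

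Limma on the 2 groups called no gene of the set. Over all 3917 genes 0 passed an adjusted p of 0.05, 0%, and 9.14% had an unadjusted p under 0.05, with NDUFS8 and NDUFV2 among them from the set. With the replicate number as a block, 9.68% of all genes passed, and 23.4% had an unadjusted p under 0.05. In that fit 5 of the 47 genes passed, 10.6%, and all 5 were longer in ATRA. The share called in the set was close to that of all genes. Once widths were also centred in each library, 0 genes of the set passed in the blocked fit. The share of all genes passing there is not given, so this count does not set the genes of the set apart.

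The 5 genes are named by the rule as those with the largest ratios among separated widths. The SE and adjusted p given here are those of the limma fit with replicates as a block. NDUFS8, a core subunit that carries iron-sulfur clusters of complex I, had 14354 and 2901 bp in ATRA against 1839 and 810 bp in control cells (log2 ratio 2.40 ± 0.34 SE, limma adjusted p = 0.000255). NDUFV2 had 13962 and 5981 bp against 2742 and 4163 bp (1.44 ± 0.38 SE, limma adjusted p = 0.0211). At both, the longest peak by far was that of ATRA replicate 1, and without that library the log2 ratio was 1.25 at NDUFS8 and 0.82 at NDUFV2. For the length under peaks within 2000 bp of the start site the ratio was 1.31 at NDUFS8 and 0.24 at NDUFV2.

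NDUFB5, an accessory subunit of complex I, had 2946 and 7705 bp in ATRA against 1633 and 2712 bp (1.18 ± 0.32 SE, limma adjusted p = 0.0252). COX7A2 had 1823 and 3522 bp against 863 and 1677 bp (1.07 ± 0.31 SE, limma adjusted p = 0.0346). NDUFA4 had 2812 and 5422 bp against 1438 and 2411 bp (1.07 ± 0.31 SE, limma adjusted p = 0.0361). In these 3 genes each ATRA library was above both control libraries, and within each condition the library numbered 2 was the longer one. Without ATRA replicate 2 the log2 ratio was 0.49 at NDUFB5, 0.60 at COX7A2 and 0.59 at NDUFA4. Without control replicate 1 it was 0.81, 0.60 and 0.70, and for the length under peaks within 2000 bp that of NDUFB5 was 0.66.

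The fit without the block gave these 5 genes limma adjusted p values of 0.41 to 0.589. Its SEs were larger: 0.82 at NDUFS8, 0.51 at NDUFV2, 0.56 at NDUFB5, 0.50 at COX7A2 and 0.47 at NDUFA4. With the block the SE was 0.31 at COX5A, COX5B and COX7A2 alike. Limma moderates the SE over all genes, so the blocked SE does not give the spread at 1 gene alone. COX7A2 and NDUFA4 were longer in both ATRA libraries for H3K4me3 as well, NDUFB5 had overlapping H3K4me3 widths of 6272 to 6858 bp, and NDUFV2 had shorter H3K4me3 peaks in ATRA. At NDUFV2 the 2 marks were thus ordered in opposite ways, in each pair of libraries.

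The 4 genes below control in both ATRA libraries were ATP5MK, UQCRH, NDUFB6 and UQCRQ. ATP5MK, a small membrane subunit of ATP synthase, had 1844 and 1952 bp against 2305 and 3598 bp (log2 ratio -0.60 ± 0.37 SE, limma adjusted p = 0.666 without the block), and the ratio was -0.28 without control replicate 2. UQCRH had 4238 and 3051 bp against 4335 and 5137 bp, a log2 ratio of -0.39 ± 0.35 SE that was -0.16 without ATRA replicate 2, and was the gene with both marks shorter in both ATRA libraries. NDUFB6 had no peak over its start site in ATRA replicate 1, 1064 bp in ATRA replicate 2, and 1144 and 1112 bp in control cells.

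NDUFV2 and NDUFAF3 were among the widest for H3K27ac. NDUFAF3 had 6521 and 5875 bp in ATRA and 4824 and 5586 bp in control cells, with separated groups. NDUFS8 and NDUFV2 each had at least 13962 bp in ATRA replicate 1 and no more than 5981 bp in ATRA replicate 2.

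The shortest were NDUFA5, an accessory subunit of complex I, with 831 and 1303 bp in ATRA and 999 and 922 bp in control cells, and ATP5MF with 1533 and 1130 bp against 928 and 999 bp. UQCRB, a small subunit of complex III, had 973 and 1778 bp against 623 and 1460 bp. Of these 3, ATP5MF alone had separated groups, and its H3K4me3 peaks were ordered the other way.

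H3K27ac divided the restricted forms from their counterparts less sharply than H3K4me3 when read at the start site itself. COX7A2 and NDUFA4, given above, had H3K27ac in all 4 libraries. COX4I1 had 1858 and 3310 bp in ATRA and 1456 bp in control replicate 1, with a peak 358 bp away in control replicate 2. COX8A had 1953 and 1660 bp in ATRA and 2359 bp in control replicate 1, with a peak 41 bp away in control replicate 2.

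COX7B had 1869 bp in ATRA replicate 2 and 1800 bp in control replicate 2, and COX6A1 had 1262 bp in control replicate 2 alone. All 7 counterparts had H3K27ac within 1000 bp in all 4 libraries, and of the restricted forms only COX8C had it within 1000 bp, in control replicate 2.

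Other genes of the pathway gave a background for these counts. Of 45 assembly factors and carriers outside the symbol rule, 45 had H3K4me3 in all 4 libraries, with a median log2 ratio of 0.15, and 21 had H3K27ac in all 4, of which 0 passed the blocked limma fit. In that fit 9.68% of all genes passed. H3K27ac lay over the start site in the ATRA libraries only at ECSIT and PET117, and at none in the control libraries only. Among all genes with an H3K27ac peak these shares were 6.97% and 0.996%. All 13 citric acid cycle genes had H3K4me3 in all 4 libraries, and 6 had H3K27ac in all 4, with OGDH in the ATRA libraries only.

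Of 12 regulators of respiratory genes, 11 had H3K4me3 in all 4 libraries, and PPARGC1A, a coactivator known for mitochondrial biogenesis in muscle and brown fat, had none. TFAM, the packaging and transcription factor of mitochondrial DNA, had H3K27ac widths of 3923 and 4928 bp in ATRA and 1042 and 1370 bp in control cells. Its log2 ratio was 1.88 ± 0.31 SE with the block (limma adjusted p = 0.0009 with the block and 0.275 without). It was the 1 of 6 regulators with H3K27ac in all 4 libraries that passed with the block, beside 9.68% of all genes.

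Of 18 glycolysis genes, 15 had H3K4me3 in all 4 libraries. ALDOC, the brain form of aldolase, had none, and ENO2, the neuronal enolase, had 1103 bp in control replicate 1 alone. HK3, a hexokinase of myeloid cells, had 5710 and 5101 bp in ATRA and 1809 bp in control replicate 1 with none in control replicate 2. H3K27ac at HK3 spanned 15529 and 12756 bp in ATRA and 5240 bp in control replicate 2. No gene of the oxidative phosphorylation set had H3K4me3 in some libraries and not in others, as HK3 and ENO2 did. Such genes were uncommon over all 20098 as well, with 10128 marked in all 4 libraries and 9192 in none.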

How the data were processed

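Reads were trimmed with cutadapt and mapped by Bowtie to hg19 by the authors, who then ran MACS2 in broad mode on every library, with no fragment model and its preset for human. Versions, and whether input libraries entered the call, are not given in the sources used here. Peak positions were used as deposited. The deposited −log10 q served only for a stricter filter at 5, and 2 other columns, labelled by the format as fold and −log10 p, held values those measures cannot take and were not used. Depth is unknown, so precision rests on 2 libraries per group.

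Start sites came from GENCODE 44 on GRCh37: the MANE Select transcript for 18878 genes, the Ensembl canonical transcript for 941 and the 5′ end of the gene for 279. Genes on chromosome Y were left out. Widths were set on a log2 scale and tested with limma 3.58.1 in R 4.3.3, over all start sites with a peak in all 4 libraries of a mark, two-sided, with Benjamini-Hochberg adjustment at 0.05. The fit without the block was run on simulated data with independent libraries, and the blocked fit was not checked in this way. An exact test of 2 libraries against 2 cannot go below p = 0.33. Genes named with values were those with a peak in 1 condition only, the 3 widest and narrowest per mark, up to 5 per direction with the largest ratio among separated widths, those without H3K4me3, the restricted isoforms with their counterparts, the SDH genes and CYC1. The symbol rule uses no measured value, but it and the other gene lists were chosen with earlier results of these data known. Some items that the rule names are not reported here.

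Within a mark, the names of deposited peaks carry a tag common to both libraries of 1 replicate number, and the deviations of such libraries from the condition means correlated across start sites (Pearson r of 0.18 for H3K4me3 and 0.42 for H3K27ac), so the numbers were read as pairs. Alternatives were the 5′ end or any annotated start, the stricter filter, joined peaks, a peak within 1000 bp, length under peaks within 2000 bp on a log2 scale with 100 bp added, centring, start sites with a peak in 1 library or more, shared peaks counted once, trend, the replicate block, leaving out each library, and the set without assembly factors and readthrough genes. For start sites with a peak in 1 library or more, a missing peak counted as no length and 100 bp were added to every width.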

Additional observations from a re-analysis of the deposited data

How the results depend on the processing

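The H3K4me3 counts of genes of the set marked in every library and in 1 condition only stayed within 1.5 times their values under each alternative. For H3K27ac, the count of genes with a peak in every library was 82 within 1000 bp and 0 with the stricter filter. The ATRA-only count was 1 with the 5′ end of the gene and with the stricter filter, 0 within 1000 bp, and 3 to 13 without 1 library. The control-only count was 2 with the 5′ end, 0 within 1000 bp and 1 to 3 without 1 library. The ATRA-only count was 13 without ATRA replicate 1 and 9 without either control replicate, and the control-only count was 3 without ATRA replicate 1, ATRA replicate 2 or control replicate 1.

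Limma calls for H3K4me3 were 0 throughout, except 1 longer gene, SDHA, for the length under peaks within 2000 bp. For H3K27ac they were 5 longer genes with the replicate block, the pairing by replicate number, and 2, ATP5F1E and UQCRC1, over start sites with a peak in at least 1 library. Their log2 ratios there, 4.12 and 3.96, rest on control peaks that miss the start site and so count as no length. The UQCRC1 peak of control replicate 1 began 3 bp from it. Shares of all genes called are given here only for the main and blocked fits. The block changed no other call for a gene of the set. The replicate block together with centring was added after seeing the data. The stricter filter left too few start sites for an H3K27ac fit, which was not run.

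The median H3K4me3 log2 ratio was -0.0909 after centring, 0.0 for the length under peaks within 2000 bp, and 0.015 (without control replicate 2) to 0.178 (without control replicate 1) with 1 library left out. For H3K27ac it was -0.0155 after centring, 0.252 within 2000 bp, 0.415 with a peak in at least 1 library, 0.262 without assembly factors and readthrough genes, and 0.135 (without control replicate 1) to 0.409 (without control replicate 2) with 1 library left out. The H3K4me3 ratio of ATP5F1B was -0.05 for the length under peaks within 2000 bp. With unknown depth and 2 libraries per group, small differences in width could not be resolved.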

Other observations

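The mitochondrial genome encodes the remaining subunits of complexes I, III, IV and V, and 2 of the deposited peaks lay on it. Both were H3K27ac peaks of control replicate 2, at chrM:1047-1646 (600 bp, −log10 q of 1.55) and chrM:6213-6714 (502 bp, −log10 q of 1.84), and the other 7 libraries listed 0. Mitochondrial DNA is not packaged with histones.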
